A study of Saccharomyces cerevisiae with 15 samples.

Results

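A gcn5 deletion strain of Saccharomyces cerevisiae treated with sulfometuron methyl (SM) was compared with untreated wild type (WT), across every yeast feature of the deposited count table. The comparison takes 6 of the 15 RNA-seq libraries of the series, 3 per group. Of 6692 yeast features, 6564 passed the filter on low counts and were tested. The gcn5 cells were a single strain, labelled 7285, in which gcn5∆::kanMX4 is added to the MATa parent alleles his3∆1, leu2∆, met15∆ and ura3∆, and they had received 1 µg/ml SM for 25 min. The untreated cells were strain BY4741, MATa with the same his3∆1, leu2∆, met15∆ and ura3∆ alleles, and had no SM. Both grew at 30 °C in synthetic complete medium without isoleucine and valine to an OD600 of 0.6 to 0.8. The series also holds 3 libraries each of WT, spt3∆::kanMX4 and spt8∆::kanMX4 cells with the same SM treatment. These show where the gcn5 strain differs. They also enter the fit of all 15 libraries, which sets the filter on low counts and the spread behind the p-values and standard errors. There are no gcn5 libraries without SM. Strain and treatment therefore change together between the groups, and so does the library set, since the names of the gcn5 libraries begin with set number 2 and those of the untreated WT libraries with set number 1. The effects of these 3 differences cannot be told apart in this comparison. The labels do not say whether replicates came from separate cultures, and p-values here therefore cover the variation among these libraries alone, which could be technical.

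SM blocks acetolactate synthase, an enzyme needed to make isoleucine, valine and leucine. Yeast cells starved of amino acids translate more of the activator Gcn4, which binds upstream of genes for amino acid synthesis and recruits coactivators. SAGA is such a coactivator: Gcn5 is its histone acetyltransferase, acting with Ada2, Ada3 and Sgf29 and shared with the ADA and SLIK complexes, while Spt3 and Spt8 of SAGA help to deliver the TATA-binding protein to promoters.

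An equal amount of ERCC spike-in RNA, a set of synthetic transcripts, had been added to equal amounts of total RNA, and the values below are scaled counts, the fragment counts of a library divided by a size factor from its spike-ins. They express abundance per unit of total RNA, not per cell, and they are not corrected for gene length, so they are compared only between libraries of the same gene. In bulk samples, fewer cells of a type and less RNA per cell cannot be told apart. The gcn5 libraries held 24830028, 29509152 and 35723735 yeast counts, and the untreated WT libraries held 40019546, 34946596 and 39650640. Yeast counts in M divided by the spike-in size factor were 30.5, 29.58 and 43.23 in the gcn5 libraries, against 31.43, 33.19 and 31.75 in untreated WT. The third gcn5 library stood apart from the other 2: 30 of 5443 abundant genes lay more than 2-fold from the mean of its partners, against 1 to 5 genes in the other 5 libraries. Values without it are given beside the results it moves most.

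The labels were checked first. Reads on GCN5 (YGR252W, chromosome VII, 996869 to 998188, sacCer3) numbered 12, 29 and 18 in the gcn5 libraries and 2544, 2234 and 2514 in the untreated WT libraries, a log2 fold change of -6.52. Of its neighbours, NOP19 (a nucleolar protein of ribosome assembly) stood at 669, 813 and 1205 scaled counts in gcn5, against 292, 293 and 302 in untreated WT, and PUP2 (a proteasome subunit) at 1382, 1478 and 2260.5, against 2818, 2585 and 2847. The 5 markers of a cells summed to 70708 to 103389 scaled counts in gcn5 and 84430 to 96034 in untreated WT and none was at 0. The 4 markers of alpha cells summed to 8974 to 12018 in gcn5 and 4468 to 4709 in untreated WT, and 6 meiotic markers to 5520 to 9157 and 2368 to 2498; none of these 10 genes was at 0 in any of the 6 libraries.

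More genes stood above the untreated WT level than below it. With edgeR's quasi-likelihood test at a Benjamini-Hochberg adjusted p of 0.05, 3270 genes (49.8%) were called higher and 1181 (18%) lower in gcn5 with SM, and 2113 (32.2%) were not called. At 2-fold or more, 1740 genes (26.5%) were higher and 412 (6.28%) lower. In 67.8% of genes the 3 gcn5 values did not overlap the 3 untreated WT values. The median gene was 0.43 higher on the log2 scale. Scaling on the yeast genes themselves, by edgeR's trimmed mean of M values (TMM), brings that median to 0.05 and the split to 2758 genes higher (42%) and 2603 lower (39.7%). No gene was called in opposite directions by the 2 scalings, all 1181 lower calls were kept, and 2758 higher calls were kept. Counts under TMM scaling are given with those under spike-in scaling for the lists below. Without the third gcn5 library, 1785 genes were called lower and 2795 higher, and the median was 0.18, a shift that most list medians below share.

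**Figure D1:**
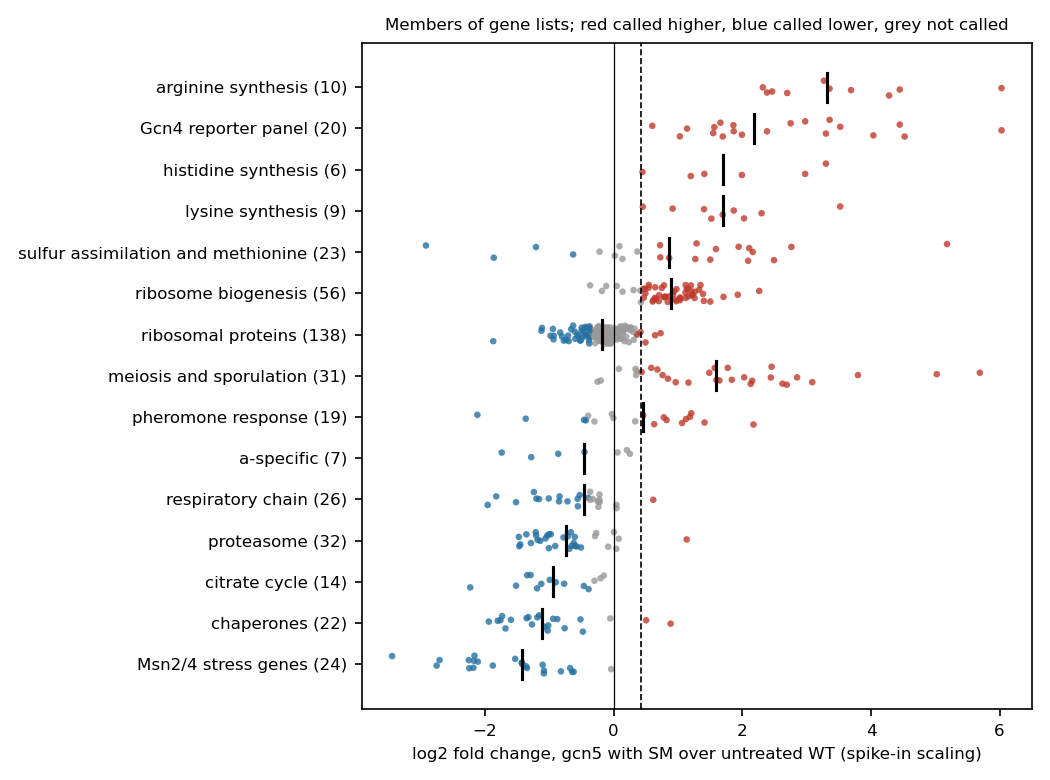
Each point is a gene of the named list, placed on the horizontal axis by its log2 fold change in gcn5 with SM over untreated WT under spike-in scaling. Red points were called higher, blue points lower and grey points in neither direction, black bars are list medians, the dashed line is the median of all genes tested (0.43), and list sizes stand in brackets. The 10 arginine genes all lie above 2, while 23 of the 24 Msn2/4 stress genes are blue.

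Many genes of amino acid synthesis that Gcn4 is known to activate stood far above the untreated level in the gcn5 strain. All 20 members of a panel of Gcn4 target genes were higher, with a median log2 fold change of 2.19, and all 20 were also higher under TMM scaling (median 1.81). The panel, like the other lists, was chosen with earlier results of these data known, so its count is a description and not a test. ARG3, of the arginine pathway, had the highest fold change in the panel, followed by SNZ1, ARG1 and SNO1. ARG3 encodes ornithine carbamoyltransferase (YJL088W, chromosome X, 268799 to 269815). It had 30565, 28989 and 39815 scaled counts in gcn5, against 583, 439.8 and 498 in untreated WT, a log2 fold change of 6.03 ± 0.21 (SE, n = 3 each; edgeR quasi-likelihood adjusted p = 1.05e-23). The lowest gcn5 value was far above the highest untreated value. ARG1, argininosuccinate synthetase, had 67017, 65202 and 88654 scaled counts in gcn5 and 3634, 3036 and 3456 in untreated WT (log2 fold change 4.45 ± 0.18). All 10 arginine genes were higher under either scaling, from 2.32 to 6.03, with a median of 3.31. The 250 bases that lie 350 to 101 bases before the ARG3 coding start (chrX:268449-268698, plus strand, sequence from the RefSeq R64 genome) are shown because ARG3 had the highest fold change of the named genes, with the Gcn4 core motif TGACTC in capitals, 314 bases before the start.
ARG3: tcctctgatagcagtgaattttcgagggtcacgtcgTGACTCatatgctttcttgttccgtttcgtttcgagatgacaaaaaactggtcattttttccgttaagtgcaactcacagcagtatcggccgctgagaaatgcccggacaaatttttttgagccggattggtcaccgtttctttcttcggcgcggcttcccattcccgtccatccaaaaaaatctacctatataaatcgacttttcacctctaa
TGACTC, on either strand, is in the window of 9 of the 10 arginine genes and of 15 of the 20 panel genes, against 7.2% of all 6541 windows. The match is a description of the sequence only.

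GCN4 mRNA itself was higher, at 34976, 31471 and 44885 scaled counts in gcn5 against 19274, 19114 and 18529 in untreated WT. The log2 fold change was 0.97 ± 0.16 (SE, n = 3 each; edgeR adjusted p = 3e-06), or 0.60 under TMM scaling. Most control of GCN4 is known to act on its translation, which these data do not measure.

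The histidine and lysine pathways followed the arginine pathway. All 6 histidine genes were higher, with a median log2 fold change of 1.70, and 5 of them under TMM scaling. HIS4, a multifunctional enzyme of histidine synthesis, had 36361, 36629 and 49814 scaled counts in gcn5, against 5127, 5014 and 5450 in untreated WT (log2 fold change 2.98 ± 0.17). All 9 lysine genes were higher, with a median of 1.70, and 8 of them under TMM scaling. LYS20, a homocitrate synthase at the entry to the lysine pathway, had 17765, 18006 and 26108 in gcn5 and 1851, 1670 and 1865 in untreated WT (log2 fold change 3.52 ± 0.20). Aromatic synthesis had 9 of 13 genes higher and 1 lower, with a median of 0.60 (8 higher and 3 lower under TMM scaling), led by TRP3 at 1.86 and TRP4 at 1.66, both of the tryptophan branch. SNZ1, which makes vitamin B6 and is a Gcn4 target outside amino acid synthesis, had 4994, 5523 and 8647 in gcn5, against 278, 272 and 283 in untreated WT (log2 fold change 4.52 ± 0.21).

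Other amino acid pathways held calls in both directions, read beside the 49.8% of all genes called higher and the 18% called lower. In the branched-chain pathway, the one that SM blocks, 4 of 10 genes were higher and 3 lower, with a median of 0.25, below the 0.43 of all genes. LEU4, the leucine-sensitive first enzyme of leucine synthesis, had 58851, 55449 and 71818 scaled counts in gcn5, against 21053, 20534 and 21324 in untreated WT (log2 fold change 1.56 ± 0.15). LEU1, the isopropylmalate isomerase of the same branch, had 9705.5, 10445 and 13631 in gcn5, against 19746, 22796 and 22453 in untreated WT (log2 fold change -0.94 ± 0.17). In WT with SM over untreated WT, LEU4 and LEU1 stood at 1.41 and -1.14. Neither was called between the 2 treated groups under spike-in scaling (0.16 and 0.19). Both were called higher in gcn5 under TMM scaling (0.35 and 0.38). In sulfur assimilation and methionine synthesis, 14 of 23 genes were higher and 4 lower, with a median of 0.86. STR3, a cystathionine beta-lyase, had 5994, 6348 and 11968 in gcn5 and 235, 229 and 206 in untreated WT (log2 fold change 5.18 ± 0.25), while SAM2, an S-adenosylmethionine synthetase, had 1318, 1311 and 1753 in gcn5 and 10922, 10814 and 11351 in untreated WT (log2 fold change -2.92 ± 0.19). Both genes were outside the range of the other group in every library. In WT with SM over untreated WT, STR3 and SAM2 stood at 5.81 and -1.945, and in gcn5 over WT with SM at -0.63 and -0.97, all called. Against WT with SM, 11 of the 23 sulfur genes were lower in gcn5 and none higher (12 and 5 under TMM scaling). Of all genes, 30.4% were lower and 10.5% higher in that contrast (34.4% and 33.3% under TMM scaling). Among 10 genes for glutamate, asparagine and proline, 2 were higher and 3 lower, or 5 lower without the third gcn5 library. GDH1, the NADP-dependent glutamate dehydrogenase, had 883, 886 and 1111 scaled counts in gcn5, against 6640, 6777 and 6964 in untreated WT (log2 fold change -2.82 ± 0.18), and ASN1, asparagine synthetase, stood at a log2 fold change of 2.22. In WT with SM over untreated WT, GDH1 and ASN1 stood at -1.71 and 1.86, both called. Of 12 serine, glycine and threonine genes, 6 were higher and 1 lower, with a median of 0.50, near the 0.43 of all genes. Under TMM scaling the lower counts grew to 4 of 10 branched-chain genes, 8 of 23 sulfur genes, 7 of 10 glutamate, asparagine and proline genes and 5 of 12 serine, glycine and threonine genes, while the higher counts stayed at 4, 14, 2 and 6. Over all genes that scaling called 42% higher and 39.7% lower. Of 18 transcription regulators of amino acid genes, 15 were higher and 1 lower (13 and 1 under TMM scaling), led by LYS14 at 2.23 and BAS1 at 2.16.

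The Gcn4 target panel was also above the untreated level in WT cells with SM, a comparison that shares the untreated WT libraries as its control. Against untreated WT, all 20 panel genes were higher in WT with SM as well, with a median of 2.32, among 3653 genes called higher (55.7%) and 497 lower (7.57%) in that comparison. Set directly against WT with SM, 691 genes were called higher (10.5%) and 1994 lower (30.4%) in gcn5 with SM, and the panel had 3 genes higher, 2 lower and a median of -0.02. Under TMM scaling, WT with SM over untreated WT had 38.7% of genes higher and 40.7% lower, and gcn5 with SM over WT with SM had 2188 higher (33.3%) and 2258 lower (34.4%). The panel then had 10 genes higher and 3 lower in gcn5 than in WT with SM, with a median of 0.16. ARG3 was 0.60 higher and LYS20 0.95 higher in gcn5 with SM than in WT with SM on the log2 scale, and ARG4 and HOM3 were 0.55 and 0.51 lower.

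**Figure D2:**
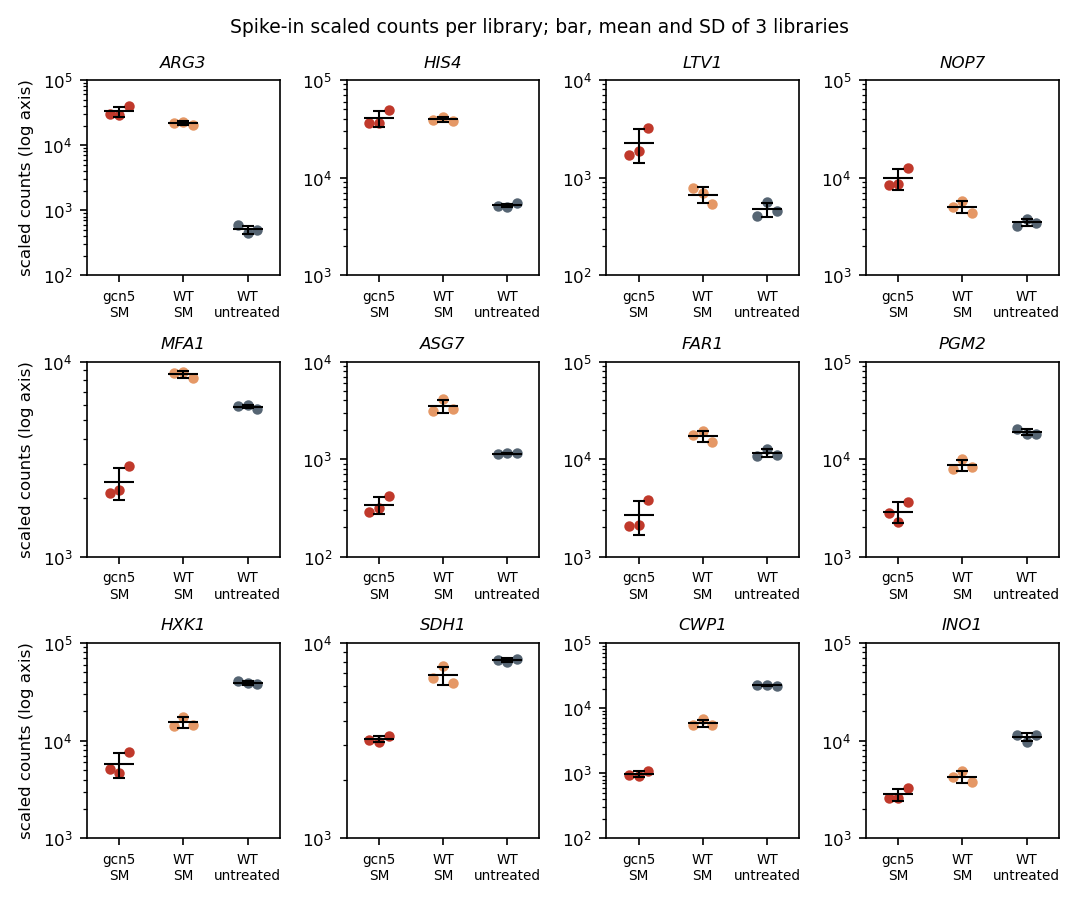
Spike-in scaled counts of 12 genes in each library, on a log axis, for gcn5 with SM, WT with SM and untreated WT, with the mean and SD of 3 libraries as bars. For ARG3 and HIS4 both SM-treated groups lie above untreated WT, whereas for MFA1, ASG7 and FAR1 the gcn5 values lie below untreated WT and the treated WT values above it; under TMM scaling only ASG7 of these 3 keeps a higher call in treated WT.

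Ribosome biogenesis genes were higher in the gcn5 strain. These factors process ribosomal RNA and assemble ribosomal subunits in the nucleolus. Of 56 genes, 48 were higher and none lower, with a median log2 fold change of 0.90; under TMM scaling 42 were higher and 5 lower, with a median of 0.51, and without the third gcn5 library the spike-in median was 0.61. LTV1, needed for assembly and export of the small subunit, had 1691, 1870.2 and 3256 scaled counts in gcn5, against 403, 561 and 456 in untreated WT (log2 fold change 2.26 ± 0.22; edgeR adjusted p = 2.8e-11). NOP7, a factor of large subunit assembly, had 8341, 8655 and 12529 in gcn5, against 3218, 3797 and 3412 in untreated WT (log2 fold change 1.5 ± 0.19). The groups did not overlap for either gene, and the third gcn5 library was the highest for both. ENP2 and MAK5 stood at 1.93 and 1.71. In WT with SM against untreated WT, the same 56 genes had 15 higher and 4 lower with a median of 0.04, and in gcn5 with SM against WT with SM 46 were higher and 1 lower with a median of 0.86. Under TMM scaling these became 2 higher and 41 lower with a median of -0.52, and 53 higher and 1 lower with a median of 1.04. Against the other deletion strains with SM, none of the 56 was higher and 16 were lower in gcn5 than in spt3, among 638 genes called higher (9.72%) and 2449 lower (37.3%), and 11 were higher and 5 lower in gcn5 than in spt8, among 509 higher (7.75%) and 2435 lower (37.1%). Under TMM scaling the counts were 12 higher and 14 lower against spt3, where 32% of all genes were higher and 32.9% lower, and 49 higher and 3 lower against spt8, where 31.1% were higher and 31.6% lower. The LTV1 window, of the same extent, (chrXI:176431-176680, plus strand, R64) is shown because LTV1 had the highest fold change of the list, with the PAC motif GATGAG in capitals, 111 bases before the coding start.
LTV1: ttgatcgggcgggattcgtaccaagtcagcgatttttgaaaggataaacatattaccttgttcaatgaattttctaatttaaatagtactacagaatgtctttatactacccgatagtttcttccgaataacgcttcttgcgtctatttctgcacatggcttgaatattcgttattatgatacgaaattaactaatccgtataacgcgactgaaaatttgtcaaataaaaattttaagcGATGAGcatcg
PAC, an element known from ribosomal RNA and ribosome biogenesis genes, is in the window of 42 of the 56 genes (75%) on either strand, against 15.8% of all windows. Ribosomal protein genes did not share this direction: of 138, 37 were lower and 5 higher, with a median of -0.18, and under TMM scaling 119 were lower and 2 higher. The count of lower calls was 61 without the third gcn5 library, 22 without the first gcn5 library and 24 without the third untreated WT library. RPL43A, a large subunit protein with a near-identical copy, RPL43B, had 501, 709 and 857 scaled counts in gcn5, against 2242, 2379 and 2940.3 in untreated WT (log2 fold change -1.87 ± 0.19). How reads shared between such copies were counted is unknown from the sources at hand, and values of single ribosomal protein genes are uncertain.

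Stress genes under Msn2 and Msn4, the activators of the general stress response, were lower. Of 24 such genes, 23 were lower and none higher, with a median log2 fold change of -1.43, and all 24 were lower under TMM scaling (median -1.83). SOL4, a 6-phosphogluconolactonase, had 359, 361 and 626 scaled counts in gcn5, against 5340.1, 4601 and 4671.5 in untreated WT (log2 fold change -3.44 ± 0.23; edgeR adjusted p = 9.93e-16). HXK1, a hexokinase, had 5091, 4619 and 7699 in gcn5 and 40895, 38633 and 37655 in untreated WT (log2 fold change -2.75 ± 0.21). PGM2, the main phosphoglucomutase, had 2784, 2287 and 3653 in gcn5 and 20576, 18004 and 18306 in untreated WT (log2 fold change -2.71 ± 0.20). Every gcn5 value of these 3 genes was below every untreated value. The exception was HSP26, a small heat shock protein, at 6444.5, 4474 and 12071 in gcn5 and 8641.5, 8080.0 and 6878 in untreated WT; the groups overlapped and it was not called (log2 fold change -0.04, 95% interval -0.49 to 0.41). PGM2 carries 3 copies of the stress element CCCCT in its window (chrXIII:477707-477956, minus strand, R64), and it is shown for that reason; they lie on the other strand, so the capitals read AGGGG.
PGM2: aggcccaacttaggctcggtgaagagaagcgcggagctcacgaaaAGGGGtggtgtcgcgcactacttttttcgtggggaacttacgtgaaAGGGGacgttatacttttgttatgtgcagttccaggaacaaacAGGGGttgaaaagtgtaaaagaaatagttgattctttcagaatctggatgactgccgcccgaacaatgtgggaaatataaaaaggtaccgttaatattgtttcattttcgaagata
CCCCT is in the window of 22 of the 24 genes (91.7%) on either strand, against 19.7% of all windows. In WT with SM against untreated WT, 10 of the 24 were lower and 1 higher, with a median of -0.35 (22 and 0 under TMM scaling, median -0.91). In gcn5 with SM against WT with SM, 23 were lower and 1 higher, with a median of -1.22 (22 and 1 under TMM scaling). Against the other deletion strains with SM the picture differed: 15 of the 24 were higher and 1 lower in gcn5 than in spt3 (19 and 1 under TMM scaling), and 9 were higher and 8 lower in gcn5 than in spt8 (10 and 8 under TMM scaling).

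Chaperone genes were lower too, and were also lower in treated WT. Of 22, 19 were lower and 2 higher in gcn5 with SM against untreated WT (20 and 1 under TMM scaling), with a median of -1.12. In WT with SM the counts were 16 lower and 2 higher, with a median of -1.05, and set directly against each other the 2 treated groups had 1 gene called each way; under TMM scaling 8 were higher and 4 lower in gcn5 than in WT with SM, with a median of 0.07. SSA2, a cytosolic Hsp70, had 9757, 9832 and 15074 scaled counts in gcn5, 10090, 10376 and 8780.1 in WT with SM, and 42817, 45274 and 44925 in untreated WT. Its log2 fold change in gcn5 over untreated WT was -1.94 ± 0.19. HSP82, the inducible Hsp90, stood at -1.76. SSA3 and HSP78 were the 2 members called higher, at 0.89 and 0.51; they are named here because they were the exceptions, and 1 remained called higher without the third gcn5 or the third untreated WT library.

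Genes of carbon metabolism and respiration were mostly lower. Of 17 glycolytic and fermentation genes, 13 were lower and 1 higher (16 and 0 under TMM scaling), with a median of -0.78. In WT with SM against untreated WT, 14 were lower and 1 higher (16 and 0 under TMM scaling), with a median of -0.52. Between the 2 treated groups, 1 was higher and 1 lower in gcn5 (8 and 1 under TMM scaling), with a median of -0.01. ADH1, the main alcohol dehydrogenase of fermentation, stood at -1.21 and PDC1, pyruvate decarboxylase, at -1.0. Of 14 citrate cycle genes, 11 were lower and none higher, with a median of -0.94, and all 14 were lower under TMM scaling. MDH1, mitochondrial malate dehydrogenase, had 2042.5, 1856 and 3078.5 scaled counts in gcn5, against 11700, 10713 and 10293 in untreated WT (log2 fold change -2.23 ± 0.20). SDH1, the flavoprotein of succinate dehydrogenase, had 3182, 3129 and 3343.5 in gcn5, 6586, 7639 and 6270 in WT with SM, and 8231, 7955 and 8329 in untreated WT. Its fold change was -1.34 ± 0.17 in gcn5 over untreated WT and -1.09 in gcn5 over WT with SM, both called. Directly against WT with SM, 11 of the 14 citrate cycle genes were lower in gcn5 and none higher (13 and 0 under TMM scaling). Against spt3 with SM, 1 of the 14 was higher and 1 lower in gcn5, and against spt8 with SM none was higher and 4 lower (11 and 1, and 4 and 4, under TMM scaling).

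Of 26 nuclear genes for the respiratory chain, 14 were lower and 1 higher, with a median of -0.46. The lower count was 25 under TMM scaling and 23 without the third gcn5 library. QCR6, a subunit of the cytochrome bc1 complex, had 682, 707 and 1174 scaled counts in gcn5, against 3322, 3378.5 and 3251 in untreated WT (log2 fold change -1.96 ± 0.20). The 8 mitochondrially encoded genes went the other way, with 6 higher and none lower and a median of 0.66 (5 higher and 1 lower under TMM scaling). The mitochondrial gene COX2, a cytochrome oxidase subunit, had 18841, 15565 and 19368 in gcn5, against 9107, 9495 and 9950 in untreated WT (log2 fold change 0.91 ± 0.18). In WT with SM none of these 8 was called against untreated WT under spike-in scaling, and 6 were called lower under TMM scaling. Among 7 hexose transporters, HXT1, a low-affinity carrier, was higher at 1.04, and 4 were lower, among them the high-affinity HXT7, with 24197, 19761 and 28650 scaled counts in gcn5 and 65004, 64724 and 61127 in untreated WT (log2 fold change -1.39 ± 0.19). Both directions held under TMM scaling. Against the other deletion strains, 6 of the 7 transporters were higher in gcn5 than in spt3 and 5 higher than in spt8, with none lower in either (7 and 6 under TMM scaling, again with none lower).

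Genes of a-cell identity and of the pheromone response separated the gcn5 strain from treated WT. In MATa cells the activator Ste12, acting with Mcm1, maintains the expression of a-specific genes. Of 7 a-specific genes, 4 were lower and none higher in gcn5 with SM against untreated WT, with a median of -0.45 (-0.79 without the third gcn5 library), and 6 were lower under TMM scaling. MFA1, which encodes the a-factor pheromone, had 2114, 2199.9 and 2933 scaled counts in gcn5, 8685, 8879.8 and 8206 in WT with SM, and 5905, 5965 and 5745 in untreated WT. The gcn5 values were the lowest of the 3 groups and the treated WT values the highest. The log2 fold change of MFA1 in gcn5 over untreated WT was -1.28 ± 0.18 (edgeR adjusted p = 8.9e-08), while it was 0.55 in WT with SM over untreated WT, and was not called there under TMM scaling. ASG7, an a-specific regulator of pheromone signalling, had 287, 319 and 419.9 in gcn5, 3142, 4086 and 3283 in WT with SM, and 1128, 1144.5 and 1151.5 in untreated WT. BAR1, the protease that degrades alpha factor, had 6221, 6168 and 10121 in gcn5, 27201, 30263 and 26098 in WT with SM, and 12543, 14478 and 13850.0 in untreated WT. STE6, the a-factor exporter, had a log2 fold change of -0.45 (edgeR adjusted p = 0.0321), and the third gcn5 library lay within the untreated range. Its call was lost when gcn5 library 1 or 2, or untreated WT library 2 or 3, was left out, with adjusted p of 0.0567 to 0.19. STE2, the alpha-factor receptor, AGA2, an agglutinin subunit, and MFA2, a second a-factor gene, were not called under spike-in scaling, at 0.21, 0.06 and 0.25; they are named to complete the list.

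The MFA1 window (chrIV:1384826-1385075, plus strand, R64) is shown for the Ste12 element TGAAACA, which lies on the other strand 312 bases before the start, so the capitals read TGTTTCA.
MFA1: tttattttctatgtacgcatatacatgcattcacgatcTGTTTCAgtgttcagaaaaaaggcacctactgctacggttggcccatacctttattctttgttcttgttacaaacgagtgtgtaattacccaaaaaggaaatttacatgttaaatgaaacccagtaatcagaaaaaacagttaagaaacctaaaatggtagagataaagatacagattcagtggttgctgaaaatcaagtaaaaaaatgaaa
TGAAACA is in the window of 6 of the 7 a-specific genes and of 12 of 19 pheromone response genes on either strand, against 6.3% of all windows. In gcn5 with SM against WT with SM, 6 of the 7 a-specific genes were lower, with a median of -1.23, and 14 of the 19 pheromone response genes were lower, with a median of -1.0. None was higher in either list. Under TMM scaling the counts were 6 lower and none higher, and 14 lower and 2 higher. Against spt8 with SM, 6 of 7 a-specific and 13 of 19 pheromone response genes were lower in gcn5, with none higher. These counts became 5 lower and 1 higher, and 12 lower and 3 higher, under TMM scaling. The names of the spt8 and gcn5 libraries share a set number, and the part of the library set in these values was not tested.

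Against untreated WT, the pheromone response list was mixed in gcn5, with 10 genes higher and 4 lower and a median of 0.46. In WT with SM 17 of the 19 were higher and none lower, with a median of 1.24 (12 higher and 1 lower under TMM scaling). In gcn5 under TMM scaling 9 were higher and 8 lower, and under spike-in scaling the lower count was 2 without gcn5 library 1 or 2 or untreated WT library 2 or 3. FAR1, which arrests the cell cycle in response to pheromone, had 2071, 2108 and 3848 scaled counts in gcn5, 17507, 19502 and 15035 in WT with SM, and 10894, 12845 and 11092 in untreated WT. Its log2 fold change was -2.12 ± 0.21 in gcn5 over untreated WT (edgeR adjusted p = 2.12e-11). PRM2, a membrane protein of the pheromone response, stood at 2.17. The 4 alpha-specific genes, normally off in a cells, were all higher in gcn5 under either scaling, with a median of 1.73, and all 4 were higher in WT with SM, with a median of 1.74 (3 under TMM scaling). STE3, the a-factor receptor, had 1535, 1699.8 and 2110.4 scaled counts in gcn5, against 569, 466 and 549 in untreated WT (log2 fold change 1.75 ± 0.18).

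**Figure D3:**
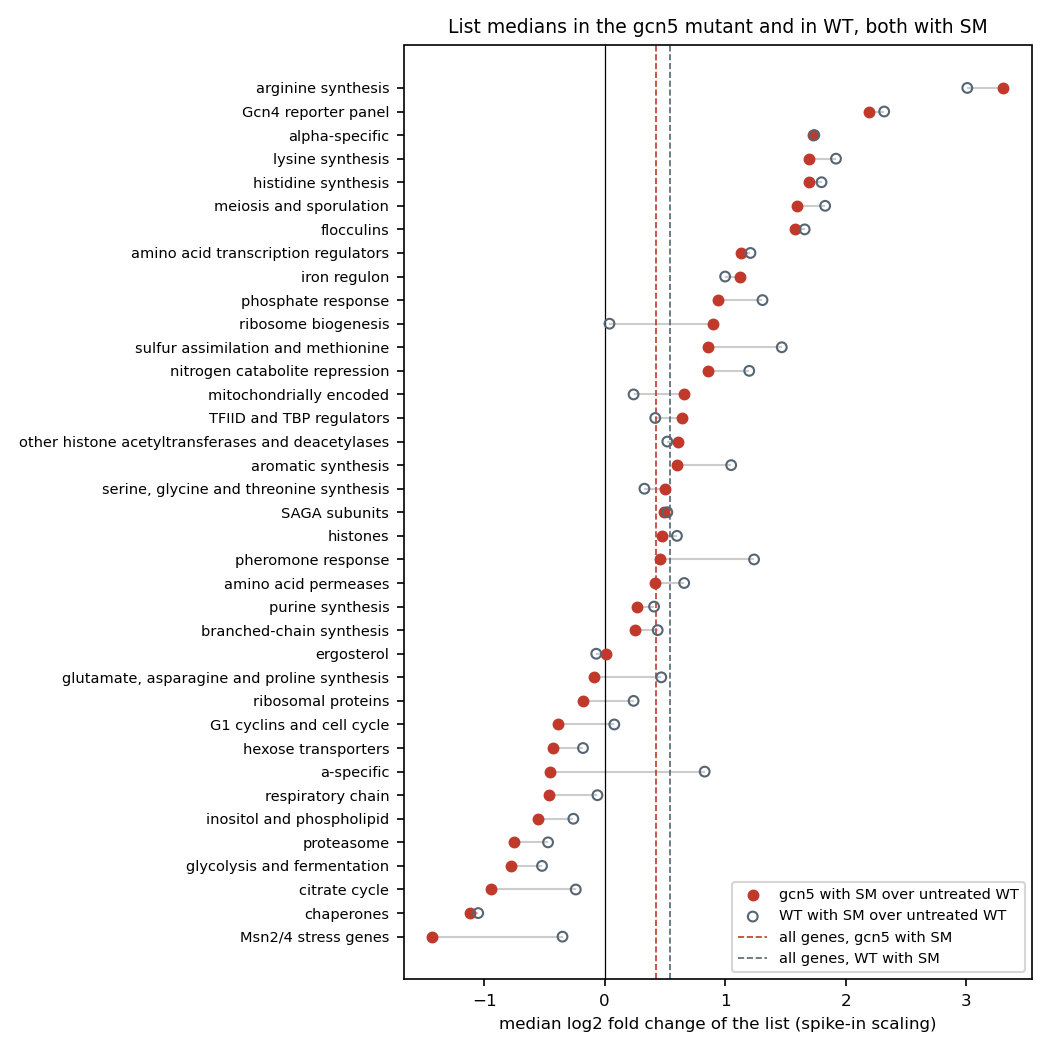
Median log2 fold change of each gene list under spike-in scaling, in gcn5 with SM over untreated WT (filled points) and in WT with SM over the same untreated WT libraries (open points). Dashed lines are the medians of all genes tested, 0.43 and 0.54. The widest gaps between the points are those of the a-specific genes (-0.45 and 0.83), the Msn2/4 stress genes (-1.43 and -0.35) and the ribosome biogenesis genes (0.90 and 0.04).

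The 12 highest fold changes, among genes with a standard symbol, a mean CPM (library-scaled count) of at least 10 and no overlap between groups, were held by ARG3, SRL4, LDS1, STR3, DPA10, FRM2, ARO5, BOP2, SNZ1, ARG1, ARG56 and RTS3, from 6.03 to 4.21. SRL4 had 789.8, 829 and 1101 scaled counts in gcn5, against 20.4, 18.05 and 12.8 in untreated WT. LDS1, a lipid droplet protein of spore wall assembly, had 763, 673.5 and 933 in gcn5, against 18.06, 18.05 and 9.61 in untreated WT. Both had few counts in untreated cells, and their groups were far apart. FRM2, a protein of the nitroreductase family, and BOP2 differed most from treated WT among these 12. FRM2 had 663, 785 and 999.5 in gcn5, 217, 241 and 228 in WT with SM, and 22.8, 19.0 and 28.8 in untreated WT. BOP2 had 10108, 9166.5 and 17670 in gcn5, 4012, 4538 and 3386.5 in WT with SM, and 542, 526 and 505 in untreated WT. In gcn5 with SM over WT with SM, their log2 fold changes were 1.84 and 1.63. In the other deletion strains with SM, FRM2 had 797, 658 and 572 in spt3 and 602, 622 and 609 in spt8. Under spike-in scaling gcn5 was not called different from either, at log2 fold changes of 0.27 and 0.42. Under TMM scaling FRM2 was called higher in gcn5 than in both, at 0.59 and 0.73. BOP2 was not called against spt3 (log2 fold change 0.42) and was 0.85 higher in gcn5 than in spt8 under spike-in scaling. Under TMM scaling it was called higher in gcn5 than in both, at 0.71 and 1.12.

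The 12 deepest falls were those of CWP1, SOL4, PHO3, SAM2, RTC3, FMP46, CBP4, GDH1, ERV2, HXK1, PGM2 and AFB1, from -4.50 to -2.64. CWP1, a cell wall mannoprotein, had 948, 911 and 1096 scaled counts in gcn5, 5417, 6758 and 5513 in WT with SM, and 22394, 22406 and 21940 in untreated WT (log2 fold change in gcn5 over untreated WT -4.50 ± 0.20, edgeR adjusted p = 4.52e-21). CWP1 was thus lower in both treated groups, and 2.58 lower in gcn5 than in treated WT on the log2 scale. It was low in the other deletion strains with SM too, at -3.94 in spt3 and -3.97 in spt8 over untreated WT. In gcn5 over spt3 and over spt8 CWP1 stood at -0.56 and -0.53, both called. Under TMM scaling these were -0.23, called, and -0.20, not called. PHO3, a constitutive acid phosphatase, had 1064, 1213 and 1348 in gcn5, 6874, 7164 and 6443 in WT with SM, and 8823, 10010 and 9480 in untreated WT. FMP46, a mitochondrial protein, had 210.03, 209 and 419 in gcn5, 2395, 2526 and 2219 in WT with SM, and 2202, 1976.5 and 2116 in untreated WT. AFB1, which binds a-factor outside the cell, had 653, 699 and 628 in gcn5, 5682, 5742 and 5254 in WT with SM, and 3845, 4242 and 4289.5 in untreated WT. For FMP46 the treated and untreated WT values lay close together and did not differ past the threshold (log2 fold change 0.18), while the gcn5 values lay below both. In gcn5 over spt3 and over spt8 with SM, PHO3 stood at -2.31 and -2.01, FMP46 at -2.86 and -3.10, and AFB1 at -3.06 and -3.07.

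Phospholipid and sterol genes were in part lower. Of 10 inositol and phospholipid genes, 6 were lower and 2 higher (8 and 2 under TMM scaling), with a median of -0.55. OPI3, a phospholipid methyltransferase that makes phosphatidylcholine, had 2443, 2105 and 2165 scaled counts in gcn5, 6921, 7714 and 6872 in WT with SM, and 10985, 11261 and 11838 in untreated WT. INO1, inositol-3-phosphate synthase, had 2610.0, 2599.8 and 3284 in gcn5, against 11415, 9681 and 11417 in untreated WT. Their log2 fold changes in gcn5 over untreated WT were -2.34 ± 0.17 and -1.94 ± 0.18. Of 23 ergosterol genes, 7 were lower and 4 higher, and 17 lower and 2 higher under TMM scaling. The higher count was 2 without the third gcn5 library or without the first untreated WT library. ERG25, a methylsterol oxidase, was the highest member, with 31677, 29839 and 46122 in gcn5, 10880, 10396 and 10166 in WT with SM, and 13418, 14057 and 13759 in untreated WT. In ERG25 the gcn5 values lay above both WT groups, with a log2 fold change of 1.38 ± 0.18 over untreated WT.

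Of 32 proteasome genes (the regulator RPN4 included), 25 were lower and 1 higher, with a median of -0.75, and 31 were lower under TMM scaling. In WT with SM over untreated WT 18 were lower and 1 higher, with a median of -0.47. In spt3 and in spt8 with SM 13 were lower, with 2 and 1 higher. Under TMM scaling 31 were lower in each of these strains. Directly against WT with SM, 11 were lower and none higher in gcn5, where 30.4% of all genes were lower (15 lower and 7 higher under TMM scaling). PUP1, a catalytic-core subunit, had 1065, 1056 and 1542 scaled counts in gcn5, against 3336, 3359.5 and 3472 in untreated WT (log2 fold change -1.47 ± 0.18). The member that was higher is RPN4, the activator of proteasome genes, at 1.14; it had 7637, 7640.1 and 12187 in gcn5 and 4154, 4234 and 4116 in untreated WT and is named as the exception.

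Genes for SAGA and related transcription factors lay on both sides of the median gene, with 9 of 20 SAGA genes, 8 of 17 TFIID genes and 6 of 20 other acetyltransferase and deacetylase genes below it. Their counts are read beside the 49.8% of all genes called higher and the 18% called lower (42% and 39.7% under TMM scaling). Of the 20 SAGA genes other than GCN5, 11 were higher and 1 lower, and 9 were higher and 5 lower under TMM scaling. The SAGA median was 0.49, beside 0.43 for all genes (0.18 for the SAGA genes without the third gcn5 library). The single lower call was lost when any one of the other 5 libraries was left out, and 2 were lower without the third gcn5 library. Among them SPT3 had 914, 849 and 1513 scaled counts in gcn5, against 790.01, 822 and 773 in untreated WT (log2 fold change 0.46, edgeR adjusted p = 0.0348). The SPT3 call was lost in many settings. Without the third gcn5 library the fold change was 0.15 and under TMM scaling 0.06, with neither called. The call was also lost without any 1 of the untreated WT libraries, with the 2 groups alone, with the replicate block and with total spike-in counts. In those settings the edgeR adjusted p was 0.0539 to 0.0952. SPT8 stood at -0.15, not called, and at -0.52 under TMM scaling, called. Of 17 genes for TFIID and regulators of the TATA-binding protein, 9 were higher and 1 lower (9 and 7 under TMM scaling), and 5 were lower without the third gcn5 library. The lower one, TOA2, a subunit of TFIIA, had 216, 261 and 227.5 in gcn5, against 515, 476 and 598 in untreated WT. Of 20 other histone acetyltransferase and deacetylase genes, 13 were higher and none lower (11 and 5 under TMM scaling). Among 11 histone genes 8 were higher and 1 lower (3 and 2 under TMM scaling). The lower one was the linker histone gene HHO1, with 699, 817 and 1310.5 in gcn5 and 3369, 3299.6 and 3279 in untreated WT (log2 fold change -1.82 ± 0.20).

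Over all genes, the calls were read against the letters in the upstream window, taken from 350 to 101 bases before each coding start. Of the 6541 genes with a window, 49.8% were called higher and 18.1% lower. The 7-letter Gcn4 motif TGACTCA was in 168 windows (2.6%), of which 67.9% belonged to genes called higher and 9.5% to genes called lower. Its 6-letter core, TGACTC, which includes those matches, was in 469 windows, with 59.1% higher and 13% lower. The stress element CCCCT was in 1289 windows, with 39.7% higher and 27.6% lower, the PAC motif in 1035, with 54.9% higher and 16.1% lower, and the Ste12 element in 409, with 43.8% higher and 16.1% lower. TATAAA or TATATA was in 3427 windows (52.4%), with 48.7% higher and 20.2% lower, and the Cbf1 element CACGTG in 236, with 50.8% higher and 20.3% lower. The shares for these last elements were within a few percentage points of those of all windows. Median log2 fold changes ran from 0.95 for TGACTCA and 0.54 for PAC to 0.28 for the Ste12 element and 0.15 for CCCCT, beside 0.43 for all windows.

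**Figure D4:**
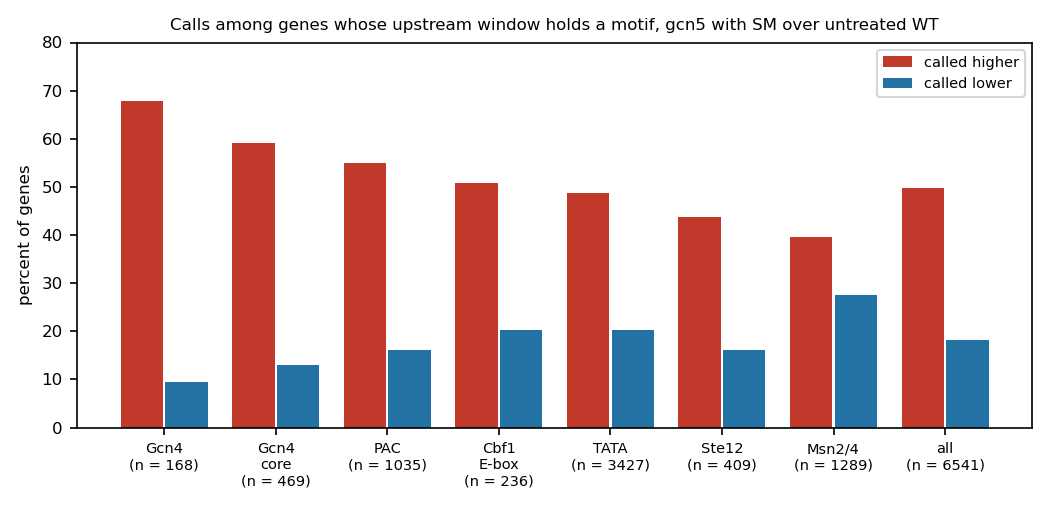
Percent of genes called higher (red) and lower (blue) in gcn5 with SM over untreated WT among genes whose 250-base upstream window holds each motif on either strand, with the number of genes under each pair of bars and all genes with a window at the right. Genes with the Gcn4 motif have the highest share of higher calls, 67.9%, and genes with the Msn2/4 element the highest share of lower calls, 27.6%.

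Gene length and position differed between the calls. Genes called higher had a median coding length of 1093 bases and genes called lower 1008, against 1101 for all genes. Split into 4 classes by coding length, the shortest genes, of 75 to 564 bases, had 909 of 1648 called higher and a median log2 fold change of 0.67. The median was 0.27 for genes of 567 to 1101 bases, 0.36 for genes of 1104 to 1785 bases and 0.46 for longer genes. In WT with SM over untreated WT the shortest class had a median of 0.92, beside 0.54 for all genes. In gcn5 with SM over WT with SM its median was -0.34, beside -0.19 for all genes. Of the genes called higher, 6.5% lie within 20 kb of a chromosome end, against 1.3% of the genes called lower and 4.3% of all genes tested. Features without a matching RefSeq gene made up 14.7% of those called higher, 2.0% of those called lower and 9.2% of all tested. The counts of genes called therefore include features that RefSeq does not list.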

How the data were processed

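The deposited table holds raw fragment counts per yeast feature and per ERCC species, made by the authors. Per the submitters' processing notes, STAR, SAMtools and DESeq2 were used with the sacCer3 genome, without versions. The counter, its strand setting and its treatment of shared reads were not given in the sources used here. Values of near-identical copies and of overlapping or antisense genes are uncertain for that reason. Paired-end stranded libraries were made after rRNA depletion, with 2.4 µl of diluted ERCC mix per 1.2 µg of RNA, per the labels' protocols.

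Counts were scaled by the median of ratios over the 74 spike-ins present in every library and tested with edgeR 4.0.16 (quasi-likelihood, all 15 libraries in 5 groups, filterByExpr, limma 3.58.1, R 4.3.3), with Benjamini-Hochberg adjustment over 6564 genes and calls at 0.05. The common coefficient of variation between replicates was 16.1%, and 7.8% under TMM. DESeq2 1.42.0 was an alternative. Errors beside log2 fold changes are standard errors. Tables and figures used Python 3.11.15, pandas 2.3.3, numpy 2.4.6 and matplotlib 3.10.9. The fit was run on simulated counts with known changes in some genes. That simulation held no error in the scaling and no library that stood apart, so it did not test the effect of either. Within gcn5 with SM and within untreated WT, no pair of libraries agreed within sampling noise, and other pairs were not compared. Upstream windows come from the RefSeq R64 genome, since 6000 of 6008 matched features have the coordinates of the table.

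Genes are named by a rule: the deleted genes, GCN4 and the neighbours of GCN5, the 12 largest rises and falls described above, up to 4 called members of each of 37 lists with the largest changes, and a panel of 20 Gcn4 targets. The members and lists were chosen with earlier results of these data known.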

Additional observations from a re-analysis of the deposited data

Results flagged for a closer look

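The genes listed here met 2 conditions. They were called in opposite directions against untreated WT in the 2 treated strains. They were also called in gcn5 with SM over WT with SM by edgeR's quasi-likelihood test. That direct call was therefore required for listing and is no separate evidence. Their log2 fold changes in that contrast were -3.36 for ASG7, -3.07 for AFB1, -2.70 for FAR1, -1.89 for BAR1, -1.83 for MFA1 and -1.0 for STE6, all called lower than untreated WT in gcn5 and higher in treated WT under spike-in scaling. Under TMM scaling all 6 stayed lower in gcn5 than in treated WT, from -3.17 to -0.85, but the rise in treated WT over untreated WT was called for ASG7 and BAR1 only. It was -0.12 for AFB1, 0.02 for FAR1, -0.002 for MFA1 and -0.006 for STE6. For STE6 the call against untreated WT is lost without some single libraries. ERG25 stood the other way, at 1.77, above untreated WT in gcn5 and below it in treated WT under either scaling. These are the named genes that met both conditions, and the gcn5 values were below, or for ERG25 above, those of treated WT in 3 of 3 libraries. The gcn5 and the treated WT libraries also belong to different library sets, whose part in these values was not tested.

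The parent strain lacks LEU2 and MET17 (MET15), yet the first untreated WT library held 70 counts of LEU2 and 82 counts of MET17. No other library of the 6 held more than 6 counts of either gene. Both genes were left out of the named genes.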

How the results depend on the processing

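The scaling moved the results most. The count of genes called lower, 1181 under spike-in scaling, was 2603 with TMM, 2657 with the median of ratios over yeast genes, 2580 with TMM and the replicate block, and 2650 with TMM without the third gcn5 library, a setting chosen after seeing the data. Under the same 4 settings, genes 2-fold or more higher (1740) numbered 1115, 1087, 1113 and 1145, those 2-fold or more lower (412) numbered 816, 846, 813 and 814, and the median log2 fold change (0.43) was 0.05, 0.03, 0.05 and 0.02. Leaving out each library in turn gave 2795 to 3499 genes higher, 950 to 1785 lower, 1375 to 1969 and 333 to 587 at 2-fold or more, and medians of 0.18 to 0.53; the lowest higher count, the highest lower count and the lowest median came without the third gcn5 library. DESeq2 called 3292 higher and 1204 lower, the 6 libraries alone 2926 and 1000, no filter 3297 and 1182, and total spike-in counts 3170 and 1380.

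The replicate numbers were not taken as pairs, because same-numbered libraries of the 2 groups had deviations correlated at 0.152, -0.053 and -0.053; with the replicate number as a block, 3135 genes were higher and 1111 lower, and not every library correlated best with its own number. Of the 169 named genes, 166 to 169 kept their call under each setting. The exceptions were SPT3, SPT8, STE6 and ATP8, and SPT3 turned to -0.01 under TMM without the third gcn5 library. The cause of these shifts was not tested. Without the third gcn5 library, 2 genes each were called lower among ribosome biogenesis, histone, and serine, glycine and threonine genes, against 0, 1 and 1, and no glycolysis gene was called higher, against 1. No gene was called in opposite directions under any setting run. The depth, from 24830028 to 40019546 yeast counts a library, sets the counting error, which is widest for genes with few counts.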

Other observations

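Genes of programmes that are normally silent or low in growing haploid cells stood above the untreated level in gcn5 with SM. Of 31 meiosis and sporulation genes, 25 were higher and none lower, with a median log2 fold change of 1.60 (22 higher and 2 lower under TMM scaling), and in WT with SM 30 of the 31 were higher (29 under TMM scaling). Without the third gcn5 library 2 were lower. SPS2, a sporulation gene, had 136, 120.3 and 166 scaled counts in gcn5, against 3.93, 5.70 and 3.20 in untreated WT. IME4, a methyltransferase needed for entry into meiosis, had 49.1, 48.1 and 70.2 in gcn5, against 3.93, 6.65 and 8.81 in untreated WT. Both had few counts in untreated cells, and neither gene's groups overlapped. All 5 flocculin genes, for cell surface adhesins, were higher under spike-in scaling and 4 under TMM scaling, led by FLO9 with 2701, 2321 and 3415 in gcn5 and 463, 386 and 479.6 in untreated WT. In WT with SM all 5 were also higher than in untreated WT, under either scaling.

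Nutrient-responsive groups held calls in both directions, and are read beside the 49.8% of all genes called higher and the 18% called lower. Of 17 phosphate genes, 10 were higher and 1 lower (9 and 7 under TMM scaling), and 5 were lower without the third gcn5 library. PHO89, a sodium-coupled phosphate carrier, had 367, 354 and 508 scaled counts in gcn5, 132, 147 and 101 in WT with SM, and 26.7, 11.4 and 19.2 in untreated WT. Its 3 groups did not overlap, and its log2 fold change was 4.39 in gcn5 over untreated WT and 1.69 in gcn5 over WT with SM, both called by edgeR. Of 17 iron-regulon genes 11 were higher and 2 lower (11 and 5 under TMM scaling), led by ENB1, a transporter of iron-bound enterobactin, at 1.73. Of 19 genes under nitrogen catabolite repression 11 were higher and 2 lower (10 and 6 under TMM scaling), led by UGA3, an activator of genes for 4-aminobutyrate use, with 15262, 15878 and 22377 in gcn5, against 2079.5, 2144 and 2232 in untreated WT. Set against WT with SM, 12 of these 19 and 9 of the 17 iron genes were lower in gcn5, under either scaling. Without the third gcn5 library 4 iron genes and 4 nitrogen genes were lower than untreated WT. Of 15 amino acid permeases, 9 were higher and 2 lower (6 and 4 under TMM scaling), with a median of 0.42 beside 0.43 for all genes, led by AGP3 at 1.66. Of 14 purine genes 3 were higher and 2 lower (3 and 6 under TMM scaling), or 4 lower without the third gcn5 library. Of 19 cyclin and cell cycle genes 4 were higher and 7 lower (2 and 14 under TMM scaling). Without the third gcn5 library 2 were higher and 12 lower, and without the first or the second gcn5 library 4 were lower. CLN2, a G1 cyclin, had 2467.5, 2621 and 4299.5 in gcn5 and 5406, 7101 and 6783 in untreated WT.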
